A study of Drosophila melanogaster with 32 samples.

Results

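A set of 31 genes of the muscle contractile apparatus and its calcium handling was followed through RNA-seq libraries of fly heads. They were chosen by FlyBase symbol, and 30 of the 31 had a line among the 17559 genes counted. The gene wupA, which encodes troponin I, had no line under the identifier that the reference tables give it. The counts may hold it under an earlier identifier that these tables do not pair with the symbol, so it is given no value. The 30 genes comprised 6 thick filament genes, 4 actins, 8 tropomyosin and troponin genes, 9 genes of the Z disc, the titin-like proteins and the M line, and 3 genes of calcium handling and a calponin-like protein.

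The 32 libraries held polyadenylated RNA from heads of adult male Drosophila melanogaster, each from a pool of about 100 flies. The 4 strains, which the labels call w+hsp70-, hsp70-, hsp70-4c and hsp70-1c, were sampled as naive flies and 5 h after training, and hsp70-1c and hsp70-4c also 24 h after training. Naive hsp70-1c and hsp70-4c flies gave 4 libraries each, and each of the other 8 groups gave 3. The labels name the strains without giving their alleles, and they do not describe the training; the series concerns the effect of hsp70 on memory formation.

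Muscle shortens when myosin heads on the thick filament pull on actin of the thin filament. Calcium released from the sarcoplasmic reticulum binds troponin C, the troponin complex shifts tropomyosin away from the myosin binding sites on actin, and the SERCA pump returns calcium to the reticulum so that the muscle relaxes. Z discs anchor the thin filaments and M lines the thick ones, while titin-like proteins link the filament systems. In the fly head these genes serve small muscles such as those of the proboscis, the antennae and the retina, whereas the large flight and leg muscles lie in the thorax.

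Reads assigned to genes numbered 4542145 to 10344890.0 per library, with a median of 7371732, and the 30 muscle genes each had at least 1 read in all 32 libraries. Between 58.15% and 68.66% of the reads listed in a file fell on no annotated gene. The 6 inducible Hsp70 genes summed to 22 to 54 counts in each of 10 hsp70-4c libraries, 0 to 1 in the hsp70- and w+hsp70- libraries, and 0 to 4 in those of hsp70-1c. Markers of the head were present: the rhodopsin gene ninaE lay between 16300.0 and 36880.0 counts per 1000000 assigned reads after TMM scaling of the library size (CPM) and the neuronal synaptobrevin gene nSyb between 385 and 609.9 CPM. Of the other neuronal markers elav, an RNA-binding protein gene, was listed at only 0 to 1.27 CPM. Testis markers were at or near 0, with Mst84Da at 0 in all 32 libraries and Mst87F highest at 6.77 CPM.

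Per kilobase of exon, the mean level over the 32 libraries was highest for TpnC25D, a troponin C gene, at 393 CPM per kb. The calponin-like gene Mp20 followed at 258 CPM per kb, the muscle actin gene Act57B at 218 and the myosin alkali light chain gene Mlc1 at 189. SERCA stood at 102 CPM per kb and the muscle myosin heavy chain gene Mhc at 37.0. The genes of giant proteins were low on this scale, at 1.07 CPM per kb for sls, which encodes the titin-like protein Sallimus, and 1.09 for Msp300, a nesprin gene. The scale divides by all annotated exons, 58996 bp for sls and 69810 bp for Msp300, whether or not reads cover them evenly. Ranks between long and short genes are therefore uncertain. The lowest was Zasp67, a Z-disc PDZ protein gene, at 0.664 CPM per kb. Genes used mainly in flight muscle were not among the highest: the flight muscle actin gene Act88F stood at 34.6 CPM per kb, the flightin gene fln at 17.5 and the flight muscle troponin C gene TpnC4 at 10.1. The muscle actins and the troponin C genes resemble each other in sequence, so that reads of one may have been counted for another and levels within each family are uncertain.

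Of the 30 muscle genes, 20 were lower 5 h after training in the mean response of the 4 strains, while hsp70- and w+hsp70- taken alone gave no call. The mean change at 5 h over the 4 strains was negative for 29 of 30 genes, and the 20 called passed the edgeR quasi-likelihood test with Benjamini-Hochberg adjustment over all genes (adjusted p below 0.05), against 7.7% of the 10843 genes tested. None was higher, against 6.49%. Their median log2 change was -0.31, beside 0.00 for all genes. The flightin gene fln was lower by the most among those called (log2 change -0.66, SE 0.15, adjusted p = 0.00355), followed by Zasp67 (-0.62, SE 0.20) and TpnC47D, a troponin C gene (-0.59, SE 0.19). Zasp67 was low, at 2.16 CPM on average, and the calls of Zasp67 and TpnC47D were each lost in most of the alternatives tried. The smallest adjusted p belonged to the muscle LIM protein gene Mlp60A (log2 change -0.51, SE 0.07, adjusted p = 2.02e-06), to Mhc (log2 change -0.32, SE 0.05, adjusted p = 1.61e-05) and to Mlc1 (log2 change -0.45, SE 0.07, adjusted p = 6.56e-05). The spread behind these p-values is that between pools of flies of the same group, not between strains. Because whole heads were used, fewer muscle cells and less RNA per cell cannot be told apart.

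By role, 4 of 6 thick filament genes, 4 of 4 actins, 6 of 8 tropomyosin and troponin genes, 5 of 9 Z-disc, titin-like and M-line genes and 1 of 3 calcium and calponin-like genes were lower in the mean 5 h response. Of the 10 genes that did not pass, TpnC4 had the most negative estimate, at -1.19 (SE 0.52), with an SE larger than that of any other muscle gene. The only positive estimate was that of sls, at 0.05 (SE 0.13). Mlc2 was at -0.21 (SE 0.10), Mf at -0.07 (SE 0.09), TpnC41C at -0.21 (SE 0.10) and bt at -0.15 (SE 0.10). Zasp66, Msp300, Scp1 and Mp20 were at -0.11 (SE 0.06), -0.13 (SE 0.12), -0.30 (SE 0.15) and -0.07 (SE 0.06). With any 1 of the 26 naive and 5 h libraries left out, between 16 and 20 genes were lower.

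**Figure D1:**
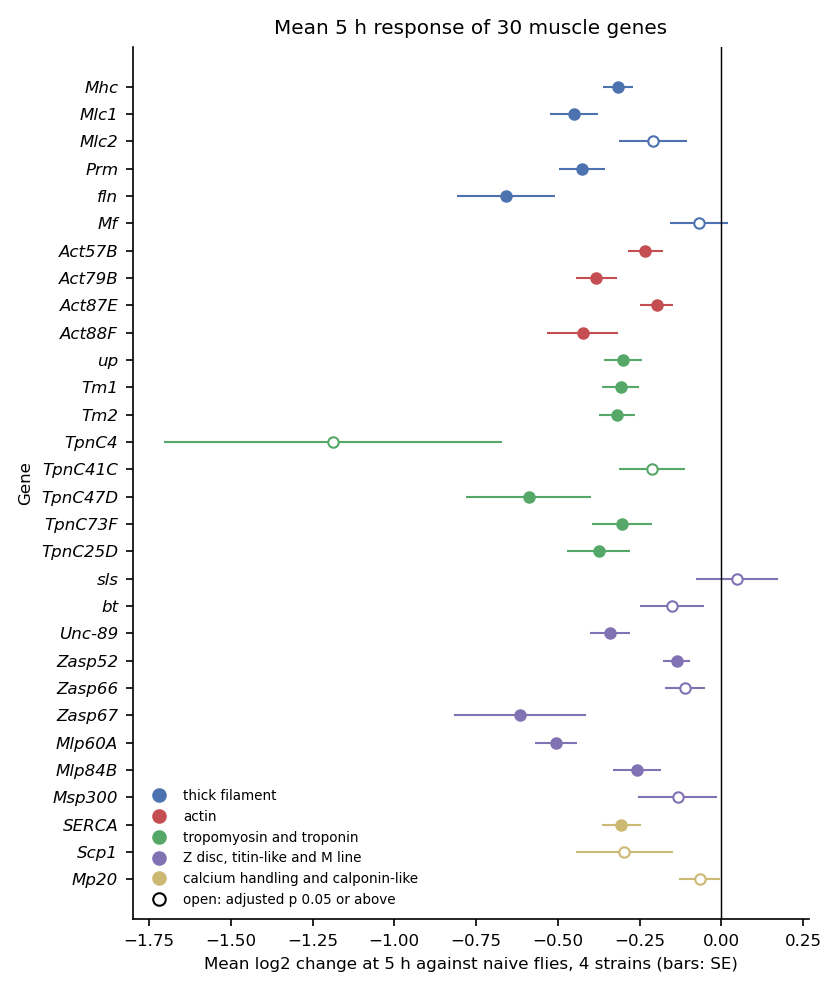
Mean log2 change at 5 h against naive flies over the 4 strains for each of the 30 muscle genes, with its SE as a bar and the colour giving the role. Filled points mark the 20 genes called lower, and 29 of the 30 points lie below 0.

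The summed level of the 30 genes gives the same picture per library. In hsp70-1c it was 5542, 6794, 6155 and 5750.4 CPM in naive flies, 4925, 4579.8 and 5317 CPM at 5 h and 4654, 4305 and 4549.5 CPM at 24 h. In hsp70-4c it was 7440.4, 7298, 6860.4 and 5478 CPM in naive flies, 5174, 4444 and 4115 CPM at 5 h and 5445, 4220.1 and 4195 CPM at 24 h. All trained libraries of these strains lay below all naive ones of the same strain. In hsp70- the sum was 5749.6, 5688 and 5975 CPM in naive flies and 5381, 5255 and 5333 CPM at 5 h, and in w+hsp70- it was 6527, 5711 and 5929 and 5430.0, 5425 and 6082 CPM. With TMM scaling the groups did not overlap in hsp70-, but per assigned read without TMM they did, with naive libraries from 5617 to 6317 and trained ones from 5310.5 to 5967, while in w+hsp70- the highest trained library lay above the lower naive ones. As means these are 6060.1 ± 551, 4941 ± 369 and 4503 ± 179 CPM in hsp70-1c (SD, n = 4, 3 and 3) and 6769 ± 896, 4578 ± 542 and 4620.1 ± 715 CPM in hsp70-4c (SD, n = 4, 3 and 3). They were 5804 ± 151 and 5323 ± 63.4 CPM in hsp70- and 6056 ± 422 and 5646 ± 378 CPM in w+hsp70- (SD, n = 3 each).

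**Figure D2:**
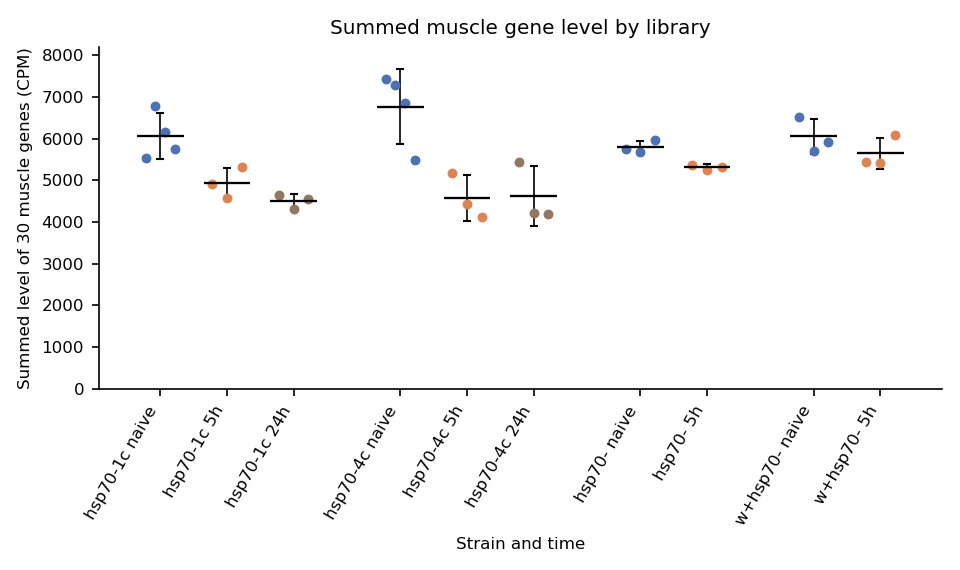
Summed level of the 30 muscle genes (CPM) in each of the 32 libraries by strain and time, with the group mean as a line and the SD as a bar. In hsp70-1c and hsp70-4c all trained libraries lie below all naive libraries of the strain.

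In hsp70-1c at 5 h, 4 muscle genes were lower and 0 higher, against 2.1% of 10514 genes lower and 1.41% higher. They were the actin gene Act79B (log2 change -0.48, SE 0.10, adjusted p = 0.0201), SERCA (log2 change -0.40, SE 0.09, adjusted p = 0.0219), Mlc1 (log2 change -0.47, SE 0.11, adjusted p = 0.0343) and Mlp60A (log2 change -0.38, SE 0.09, adjusted p = 0.0391). The estimate was negative for 29 of 30 genes, with a median of -0.34 beside 0.01 for all genes. In 13 of the 30 all trained libraries lay below all naive ones, against 7.91% of all genes. The count of 4 rested on single libraries. Leaving out 5h replicate 1 or 5h replicate 2 gave 0 calls, leaving out naive replicate 3 gave 1, and leaving out naive replicate 2 or 4 gave 2. DESeq2 called 9.

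In hsp70-4c at 5 h, 12 muscle genes were lower and 0 higher, against 2.44% of 10400 genes lower and 3.04% higher. Act57B (log2 change -0.69, SE 0.12, adjusted p = 0.00621) and Mhc (log2 change -0.50, SE 0.09, adjusted p = 0.00912) had the smallest adjusted p. Mlp60A, Unc-89, which encodes the M-line protein obscurin, Prm, which encodes paramyosin of the thick filament core, and the tropomyosin gene Tm2 followed, at -0.87 (SE 0.17), -0.65 (SE 0.13), -0.82 (SE 0.16) and -0.63 (SE 0.13). The log2 changes of SERCA, Act79B, the tropomyosin gene Tm1 and TpnC47D were -0.74 (SE 0.15), -0.71 (SE 0.15), -0.56 (SE 0.13) and -0.86 (SE 0.20). The 2 called genes with the largest adjusted p were up, which encodes troponin T, and Act87E. All 30 estimates were negative, with a median of -0.56 beside 0.00 for all genes, and in 14 of the 30 the libraries did not overlap, against 9.34% of all genes. Leaving out 5h replicate 2 or 5h replicate 3 gave 2 calls, leaving out naive replicate 1 gave 5, and leaving out naive replicate 2 or 3 gave 7. DESeq2 called 16, and the share of all genes that it called is not given here. The calls of Mhc and Act57B remained under all 12 alternatives tried.

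In hsp70- at 5 h no muscle gene was called by edgeR, and 0.0305% of 9849 genes were called in either direction. At an unadjusted p below 0.05, 3 muscle genes were lower, against 3.16% of all genes, and 0 higher. DESeq2 called 0. The genes with the smallest p were Mlp60A (log2 change -0.37, SE 0.12, adjusted p = 0.541), Mlc1 (log2 change -0.29, SE 0.10, adjusted p = 0.576) and Prm (log2 change -0.29, SE 0.12, adjusted p = 0.756). The estimate was negative for 21 of 30 genes, with a median of -0.10 beside 0.01 for all genes. In 10 of 30 all trained libraries lay below all naive ones, against 6.2% of all genes.

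In w+hsp70- at 5 h edgeR called no muscle gene, where 1.93% of 10015 genes were called in either direction. At an unadjusted p below 0.05, 8 were lower, against 5.5% of all genes, and 0 higher. DESeq2 called 0. Mlp60A (log2 change -0.38, SE 0.09, adjusted p = 0.0579), TpnC25D (log2 change -0.30, SE 0.10, adjusted p = 0.178) and Act88F (log2 change -0.43, SE 0.15, adjusted p = 0.257) had the smallest p. The median of the 30 was -0.13 beside 0.00 for all genes, with 24 negative estimates. In 9 of 30 genes the trained libraries lay below the naive ones without overlap, against 7.88% of all genes. Without naive replicate 3, 1 gene was called, and with no filter on low counts 4 were lower.

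Whether the strains differed in their 5 h response was tested as a difference of differences. Between hsp70-4c and hsp70-1c no muscle gene passed, where edgeR called 0.0465% of 10764 genes in either direction. At an unadjusted p below 0.05, 3 muscle genes were lower, against 2.89% of all genes, and 0 higher. DESeq2 called 0. Act57B had the smallest p, with a difference of -0.51 (SE 0.16) and adjusted p = 0.303, followed by Mlp60A at -0.48 (SE 0.19) and Prm at -0.47 (SE 0.21). Between w+hsp70- and hsp70- edgeR called 0 of 10223 genes (0%), and DESeq2 called 0 muscle genes. An unadjusted p below 0.05 was reached by 0 muscle genes, against 139 genes higher and 1.3% of all genes lower. The smallest p there were those of Mlp84B, a muscle LIM protein gene, at 0.23 (SE 0.14), Unc-89 at -0.21 (SE 0.15) and bt, which encodes the titin-like protein projectin, at -0.38 (SE 0.30). The larger number of calls in hsp70-4c than in hsp70-1c is thus not shown to be a difference between them, and the response of hsp70-4c was not tested against that of hsp70- or w+hsp70-. Of the 30 genes, 18 had a negative estimate in each of the 4 strains, and the share of all genes with such a pattern was not computed.

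At 24 h the muscle genes of hsp70-4c were still below the naive level. There 8 were lower and 0 higher, against 0.423% of 10400 genes lower and 0.5% higher: Mhc (log2 change -0.58, SE 0.09, adjusted p = 0.0365), Act57B (log2 change -0.70, SE 0.12, adjusted p = 0.0365), Act87E (log2 change -0.59, SE 0.11, adjusted p = 0.0365), Act79B (log2 change -0.84, SE 0.15, adjusted p = 0.0365), Unc-89, Tm2, SERCA and up. The last 4 were at -0.72 (SE 0.14), -0.64 (SE 0.13), -0.76 (SE 0.15) and -0.55 (SE 0.12). All 30 estimates were negative with a median of -0.58, beside 0.00 for all genes, and in 16 the libraries did not overlap, against 5.88% of all genes. These calls too rested on single libraries. With 24h replicate 1 left out there were 13, with 24h replicate 2 left out 1, and with 24h replicate 3 or naive replicate 1, 2 or 3 left out 0. DESeq2 called 15. The 24 h and 5 h comparisons share their naive libraries, which in hsp70-4c are titled as a control for 5 h.

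In hsp70-1c at 24 h edgeR called none of 10514 genes (0%). At an unadjusted p below 0.05, 20 muscle genes were lower and 0 higher, against 4.25% of all genes lower. DESeq2 called 14 muscle genes, and the share of all genes that it called is not given here. SERCA (log2 change -0.62, SE 0.09, adjusted p = 0.0806), Act79B (log2 change -0.61, SE 0.10, adjusted p = 0.138) and Act88F (log2 change -0.94, SE 0.15, adjusted p = 0.138) had the smallest p. The estimate was negative for 28 of 30 genes, with a median of -0.40 beside 0.01 for all genes. In 18 of 30 all 24 h libraries lay below all naive ones, against 4.57% of all genes.

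Between 5 h and 24 h no muscle gene was called by edgeR in either strain, where 1.36% of all genes were called in hsp70-1c and 0.981% in hsp70-4c. In hsp70-1c, 1 muscle gene was higher and 4 lower at an unadjusted p below 0.05, against 579 of 10514 genes higher and 4.57% lower. In hsp70-4c 1 was higher and 0 lower, against 579 of 10400 genes higher and 4.92% lower. DESeq2 called 0 in both. The smallest p in hsp70-1c were those of TpnC73F, a troponin C gene (0.56, SE 0.20, adjusted p = 0.29), Zasp66 (-0.25, SE 0.09) and Act88F (-0.41, SE 0.16). In hsp70-4c they were those of Mlp60A (0.55, SE 0.17, adjusted p = 0.25), Act88F (-0.55, SE 0.25) and sls (-0.39, SE 0.20). The 24 h responses of hsp70-4c and hsp70-1c were not shown to differ for any muscle gene by edgeR, which called 0% of 10764 genes. DESeq2 called 0 muscle genes. At an unadjusted p below 0.05, 1 muscle gene was lower, against 1.71% of all genes. That gene was Act57B, at -0.34 (SE 0.16) with adjusted p = 0.992, ahead of TpnC73F at -0.42 (SE 0.25) and Unc-89 at -0.30 (SE 0.18).

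**Figure D3:**
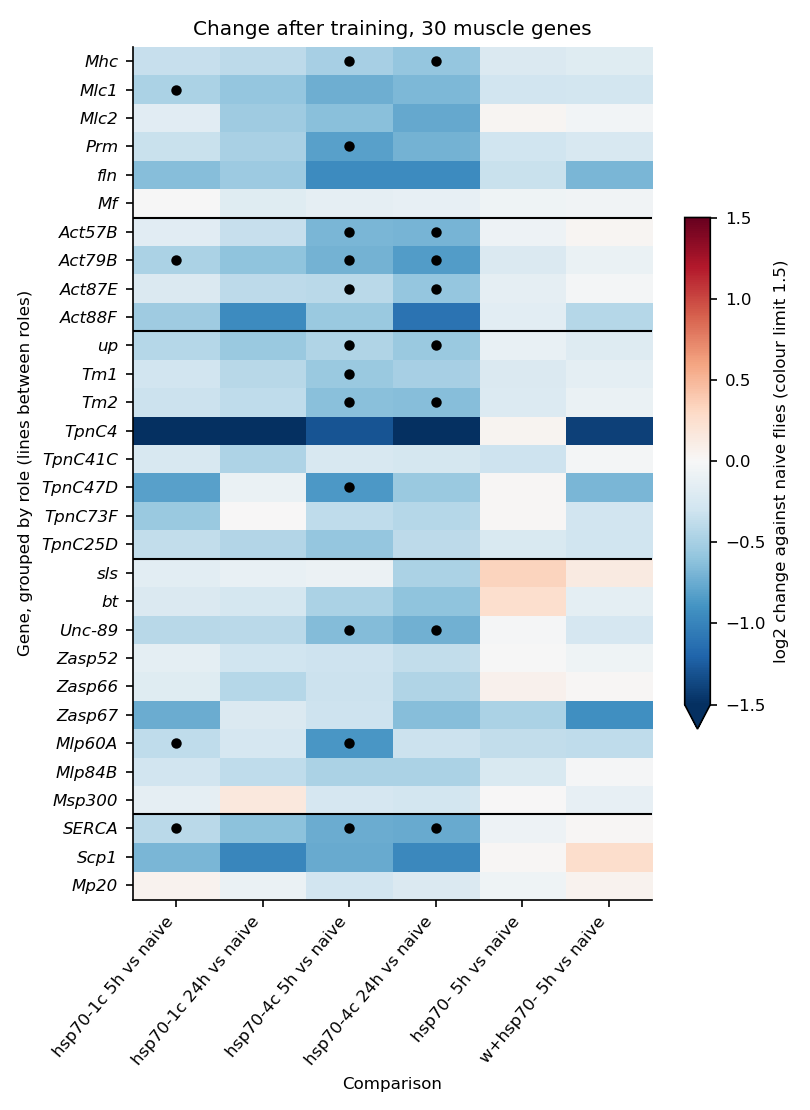
Log2 change of the 30 muscle genes after training against naive flies of the same strain, in 6 comparisons, with lines between the roles and a black dot where a gene was called. Dots number 4 and 0 in hsp70-1c at 5 h and 24 h, 12 and 8 in hsp70-4c, and 0 in hsp70- and w+hsp70-; the colours are limited at 1.5, and TpnC4 goes beyond that limit in some comparisons.

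Of the thick filament genes, 4 of 6 were lower in the mean 5 h response. In hsp70-1c, Mhc was at 319, 389, 345 and 294 CPM in naive flies, 265, 256 and 278 CPM at 5 h and 275, 266 and 226 CPM at 24 h. In hsp70-4c, Mhc was at 444, 445, 403 and 370.0 CPM in naive flies, 325, 287 and 268 CPM at 5 h and 281, 291 and 265 CPM at 24 h. Trained and naive libraries of either strain did not overlap, and the naive libraries of hsp70-4c included the highest of all. For Mhc, naive and 5 h values were 375, 408 and 433 against 351, 345 and 352 CPM in hsp70- and 399.7, 371 and 384 against 316, 351 and 359 CPM in w+hsp70-. These too did not overlap, though neither difference passed the test, at -0.21 (SE 0.10) and -0.18 (SE 0.09).

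Mlc1, an essential light chain gene, was at 251, 339.8, 296 and 257 CPM in naive hsp70-1c flies, 202, 186 and 234 CPM at 5 h and 199, 185 and 191 CPM at 24 h. In hsp70-4c, Mlc1 was at 452, 398, 371 and 279, then 271, 213 and 192 and then 298, 207 and 202 CPM. All trained libraries were below the naive ones except hsp70-4c 24h replicate 1, which was higher than naive replicate 4. Mlc1 was at 289, 284 and 284 and 236, 238 and 227 CPM in naive and 5 h hsp70- flies, and at 361, 288 and 312 and 247, 275 and 277 CPM in w+hsp70-, again without overlap. Mlc1 passed the test in hsp70-1c at 5 h; in hsp70-4c its change was larger but less precise (log2 change -0.74, SE 0.19, adjusted p = 0.0568).

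Prm was at 92.4, 127, 116 and 87.5 CPM in naive hsp70-1c flies, 88.7, 74.3 and 90.5 CPM at 5 h and 76.5, 76.3 and 74.4 CPM at 24 h. In hsp70-4c, Prm was at 132, 135, 114 and 94.5, 83.0, 63.8 and 55.6 and 85.5, 66.7 and 66.4 CPM at the same times. The hsp70-4c groups were apart at both times, whereas in hsp70-1c at 5 h the highest trained libraries lay above the lowest naive one. Prm values in naive and 5 h flies were 101, 96.8 and 123 and 88.9, 81.2 and 91.0 CPM in hsp70-, and 116, 102 and 113 and 87.6, 97.0 and 97.1 CPM in w+hsp70-. In both strains the 5 h libraries lay below the naive ones.

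The flightin gene fln was at 29.5, 39.1, 24.2 and 23.5 CPM in naive hsp70-1c flies, 27.0, 16.5 and 12.5 CPM at 5 h and 23.4, 20.5 and 15.4 CPM at 24 h. In hsp70-4c, fln was at 21.4, 22.3, 23.1 and 12.1, 11.4, 6.67 and 12.4 and 8.72, 11.9 and 10.2 CPM. In naive and 5 h flies fln was at 35.2, 26.9 and 25.6 and 23.9, 19.0 and 26.9 CPM in hsp70- and at 61.0, 31.1 and 28.6 and 25.4, 21.9 and 28.6 CPM in w+hsp70-. The fold changes were larger than those of Mhc in each strain, but naive libraries spread widely and fln passed in the mean 5 h response only. Its exons overlap asRNA:CR45161 on the other strand over 61.6% of their length, and the strand setting of the counting is not stated, so the 2 levels cannot be told apart with certainty. The antisense gene was at 24.3 CPM on average and was also lower in the mean 5 h response (log2 change -0.55, SE 0.11, adjusted p = 0.000639). The other thick filament genes were Mlc2, the regulatory light chain gene, and Mf, which encodes myofilin. Mlc2 ranged from 70.5 to 185 CPM and Mf from 149.6 to 374 CPM over the 32 libraries, and neither was called after training.

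All 4 muscle actin genes were lower in the mean 5 h response. In hsp70-1c, Act57B was at 335, 436, 375 and 367 CPM in naive flies, 327, 317 and 369 CPM at 5 h and 312, 296 and 282 CPM at 24 h. In hsp70-4c, Act57B was at 496, 534, 573 and 386 CPM in naive flies, 321, 296 and 308 CPM at 5 h and 337, 296 and 289 CPM at 24 h. Trained and naive hsp70-4c libraries stood apart, while in hsp70-1c they overlapped at 5 h and not at 24 h. Act57B values in naive and 5 h flies were 401, 440.2 and 391 and 407, 366 and 396 CPM in hsp70- and 387, 372 and 423 and 380.4, 396 and 439.5 CPM in w+hsp70-, with overlap in both.

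Act79B, an actin gene of tubular muscles, was at 167, 189, 178 and 166 CPM in naive hsp70-1c flies, 126, 109 and 143 CPM at 5 h and 115, 102 and 127 CPM at 24 h. In hsp70-4c, Act79B was at 199.5, 188, 162 and 129, 122, 96.8 and 93.1 and 107, 90.3 and 87.4 CPM. Trained libraries lay below naive ones at both times in both strains, and Act79B was called in 3 of these 4 comparisons. Act79B was at 167, 144 and 146 and 138, 122 and 132 CPM in naive and 5 h hsp70- flies, which did not overlap, and at 185, 152 and 157 and 151, 165 and 149 CPM in w+hsp70-, which did.

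Act87E was at 83.2, 92.0, 94.5 and 92.2 CPM in naive hsp70-1c flies, 80.2, 67.9 and 87.1 CPM at 5 h and 68.7, 72.2 and 66.2 CPM at 24 h. In hsp70-4c, Act87E was at 97.3, 111, 120.1 and 98.1, 91.2, 75.9 and 75.7 and 67.6, 79.2 and 67.3 CPM, with all trained libraries below the naive ones. Act87E in naive and 5 h flies was at 77.4, 97.2 and 89.1 and 87.4, 75.8 and 77.5 CPM in hsp70- and at 81.0, 76.5 and 85.6 and 77.6, 80.4 and 82.4 CPM in w+hsp70-. Both pairs of groups overlapped.

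Act88F was at 61.3, 86.7, 73.8 and 65.5 CPM in naive hsp70-1c flies, 50.9, 40.7 and 58.9 CPM at 5 h and 42.9, 31.1 and 37.8 CPM at 24 h. In hsp70-4c, Act88F was at 79.6, 64.1, 57.6 and 44.0, 55.3, 38.6 and 31.4 and 32.9, 26.6 and 26.2 CPM. The 24 h libraries lay below the naive ones in both strains, with log2 changes of -0.94 (SE 0.15) and -1.11 (SE 0.24), and neither passed the test. Act88F was at 67.3, 59.4 and 42.7 and 63.9, 41.1 and 46.6 CPM in naive and 5 h hsp70- flies and at 103, 75.8 and 71.8 and 66.8, 67.2 and 53.4 CPM in w+hsp70-, where the groups did not overlap.

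**Figure D4:**
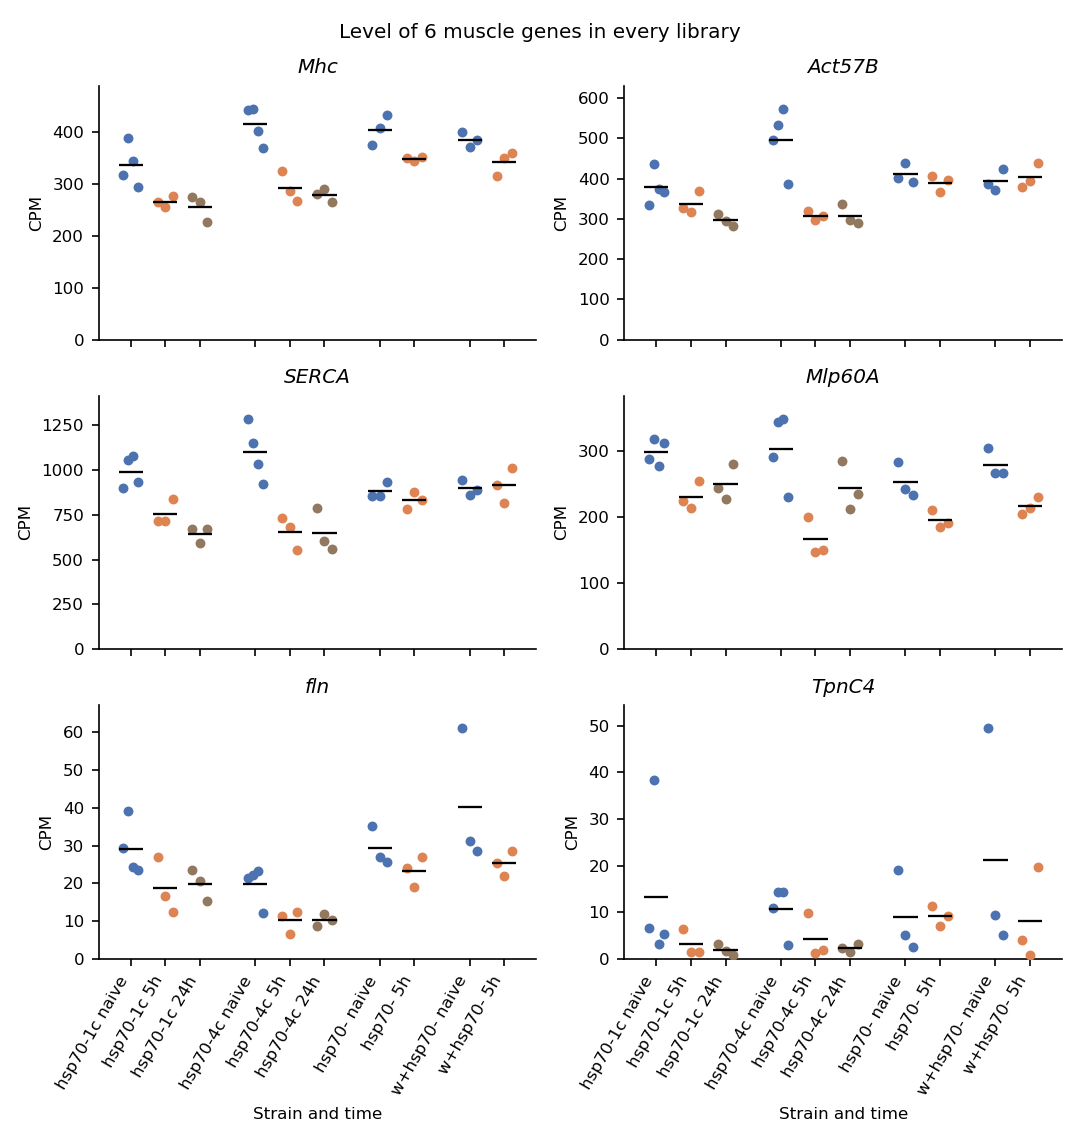
Level (CPM) of Mhc, Act57B, SERCA, Mlp60A, fln and TpnC4 in each of the 32 libraries by strain and time, with the group mean as a line. Mhc, Act57B, SERCA and Mlp60A lie lower at 5 h than in naive flies of hsp70-4c, while TpnC4 is dominated by single naive libraries, with 38.2 CPM in hsp70-1c and 49.4 CPM in w+hsp70-.

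Of the tropomyosin and troponin genes, up (troponin T) was at 326, 438, 357 and 332 CPM in naive hsp70-1c flies, 292, 252 and 274 CPM at 5 h and 277, 227 and 236 CPM at 24 h. In hsp70-4c, up was at 467, 429.8, 416 and 348, 349, 287 and 274 and 322, 265 and 265 CPM. Only 1 trained library of these strains, hsp70-4c 5h replicate 1, reached the naive range, just above naive replicate 4. The values of up in naive and 5 h flies were 315, 321 and 346 and 305, 305 and 298 CPM in hsp70-, without overlap, and 424, 358 and 378 and 324, 314 and 379 CPM in w+hsp70-, with overlap.

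Tm1, which also encodes tropomyosins of non-muscle cells, was at 254, 293, 264 and 263 CPM in naive hsp70-1c flies, 214, 199 and 251 CPM at 5 h and 212, 178 and 211 CPM at 24 h. In hsp70-4c, Tm1 was at 350.4, 331, 324 and 261, 239, 214 and 193 and 269.6, 192 and 211 CPM. The 5 h libraries lay below the naive ones in both strains. Tm1 was at 282, 261 and 260.3 and 231, 239 and 220.2 CPM in naive and 5 h hsp70- flies and at 315, 274 and 277 and 249, 247 and 292 CPM in w+hsp70-, where 1 trained library lay among the naive ones.

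Tm2 was at 258, 306, 281 and 291 CPM in naive hsp70-1c flies, 233, 208 and 246 CPM at 5 h and 219.6, 214 and 217 CPM at 24 h. In hsp70-4c, Tm2 was at 400.1, 369, 372 and 282, 260.3, 213 and 216 and 267, 207 and 212 CPM. The trained libraries lay below the naive ones in both strains at both times. Tm2 in naive and 5 h flies was at 264, 268 and 289.7 and 246, 232 and 233 CPM in hsp70- and at 319, 272 and 269.6 and 264, 243 and 301 CPM in w+hsp70-, with overlap in w+hsp70- only.

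The troponin C genes differed among themselves. TpnC4 was at 6.65, 38.2, 3.09 and 5.27 CPM in naive hsp70-1c flies, 6.35, 1.53 and 1.46 CPM at 5 h and 3.14, 1.64 and 0.772 CPM at 24 h. In hsp70-4c, TpnC4 was at 10.9, 14.4, 14.2 and 3.02, 9.74, 1.31 and 1.95 and 2.40, 1.47 and 3.11 CPM. In naive and 5 h flies TpnC4 was at 19.0, 5.14 and 2.499 and 11.3, 6.99 and 9.23 CPM in hsp70- and at 49.4, 9.36 and 5.02 and 3.96, 0.834 and 19.7 CPM in w+hsp70-. Libraries of 1 group differed widely, naive and trained libraries of each strain overlapped, and TpnC4 was called in none of 16 comparisons.

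TpnC47D was at 7.13, 18.8, 7.10 and 12.8 CPM in naive hsp70-1c flies, 5.20, 4.49 and 9.94 CPM at 5 h and 12.1, 10.6 and 8.75 CPM at 24 h. In hsp70-4c, TpnC47D was at 20.9, 24.2, 25.5 and 18.2, 16.1, 8.56 and 11.9 and 16.8, 11.9 and 16.8 CPM. It was below the naive range in all trained hsp70-4c libraries and overlapped in hsp70-1c. TpnC47D was at 5.94, 14.2 and 14.4 and 15.4, 12.4 and 6.69 CPM in naive and 5 h hsp70- flies and at 23.7, 13.1 and 21.1 and 7.77, 11.8 and 16.9 CPM in w+hsp70-, with overlap in both. Its call in the mean 5 h response was lost in 19 of 31 alternatives.

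TpnC73F was at 20.2, 31.3, 20.3 and 23.0 CPM in naive hsp70-1c flies, 16.2, 16.3 and 15.8 CPM at 5 h and 26.6, 26.9 and 17.4 CPM at 24 h. In hsp70-4c, TpnC73F was at 34.4, 41.9, 49.9 and 34.6, 26.6, 28.6 and 37.7 and 29.8, 30.1 and 30.1 CPM. Its 5 h libraries were the lowest of hsp70-1c and its naive libraries were higher in hsp70-4c than in hsp70-1c. TpnC73F in naive and 5 h flies was at 16.4, 25.1 and 23.7 and 27.0, 20.3 and 18.8 CPM in hsp70- and at 29.3, 22.3 and 29.3 and 20.8, 23.7 and 22.4 CPM in w+hsp70-. The remaining troponin C genes were TpnC25D, which ranged from 338 to 756 CPM over all libraries, and TpnC41C, from 45.2 to 116 CPM. TpnC25D was called in the mean 5 h response (log2 change -0.37, SE 0.10, adjusted p = 0.00889) and TpnC41C in no comparison.

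In the Z-disc and M-line group Mlp60A was called at 5 h in hsp70-1c and hsp70-4c. Mlp60A was at 288, 318, 277 and 313 CPM in naive hsp70-1c flies, 224, 214 and 254 CPM at 5 h and 244, 227 and 279.9 CPM at 24 h. In hsp70-4c, Mlp60A was at 290.4, 344, 349 and 229.7, 200.3, 148 and 151 and 286, 213 and 235 CPM. At 5 h it was below all naive libraries in both strains, and at 24 h it overlapped them. Mlp60A was at 283, 242 and 233 and 210.3, 184 and 191 CPM in naive and 5 h hsp70- flies and at 305, 266 and 266 and 205, 214 and 231 CPM in w+hsp70-. These groups did not overlap either, so that the 5 h libraries lay below the naive ones in all 4 strains.

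Unc-89 was at 33.6, 40.5, 36.9 and 34.1 CPM in naive hsp70-1c flies, 28.8, 28.2 and 24.9 CPM at 5 h and 31.1, 27.6 and 23.2 CPM at 24 h. In hsp70-4c, Unc-89 was at 45.1, 41.6, 41.2 and 37.0, 24.2, 27.6 and 27.0 and 22.4, 32.4 and 20.7 CPM. Trained and naive libraries did not overlap in these strains. In naive and 5 h flies Unc-89 was at 33.0, 35.8 and 38.3 and 37.9, 33.1 and 34.4 CPM in hsp70-, with overlap, and at 41.1, 38.5 and 37.2 and 30.9, 31.04 and 36.8 CPM in w+hsp70-, without it.

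Zasp52, a Z-disc PDZ protein gene, was at 147, 153, 166 and 143 CPM in naive hsp70-1c flies, 132, 145 and 139.5 CPM at 5 h and 125, 118 and 128 CPM at 24 h. In hsp70-4c, Zasp52 was at 207, 191, 180.3 and 184, 149, 162 and 149.9 and 164, 146 and 134 CPM. Its naive hsp70-4c libraries lay above all the naive hsp70-1c libraries. Zasp52 was at 147, 154 and 154 and 149, 152 and 154 CPM in naive and 5 h hsp70- flies and at 163, 153 and 164 and 138, 154 and 171 CPM in w+hsp70-, with overlap in both. The others of this group, apart from Msp300, ranged over the 32 libraries from 33.1 to 90.4 CPM for sls, 44.3 to 114 CPM for bt, 220.5 to 403 CPM for Zasp66, 0.647 to 3.50 CPM for Zasp67 and 107 to 228 CPM for Mlp84B. Mlp84B and Zasp67 were called in the mean 5 h response, and the call of Zasp67 was lost in 17 of 31 alternatives; sls, bt and Zasp66 were called in no comparison.

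Of the calcium handling and calponin-like genes SERCA alone passed after training. In hsp70-1c, SERCA was at 899.8, 1054, 1077 and 934 CPM in naive flies, 717, 715 and 838 CPM at 5 h and 673, 591 and 674 CPM at 24 h. In hsp70-4c, SERCA was at 1287, 1153, 1032 and 923 CPM in naive flies, 734, 683 and 553 CPM at 5 h and 789.9, 603 and 560.1 CPM at 24 h. Trained libraries lay below naive ones throughout both strains. For SERCA, naive and 5 h values were 854, 858 and 932 and 785, 879.9 and 834 CPM in hsp70- and 945, 861 and 889 and 916, 818 and 1012 CPM in w+hsp70-, with overlap in both. Its exons overlap CG2812 on the other strand over 16.0% of their length; CG2812 was at 7.51 CPM on average and was not called in the mean 5 h response (log2 change -0.12, SE 0.10, adjusted p = 0.489). Scp1, a sarcoplasmic calcium-binding protein gene, was at -0.69 (SE 0.17) and -0.76 (SE 0.33) at 5 h in hsp70-1c and hsp70-4c and passed in neither (adjusted p = 0.0601 and 0.214). Mp20 was at 0.06 (SE 0.12) and -0.29 (SE 0.13) in the same comparisons and had the smallest ratio of highest to lowest library among the 30 genes, at 1.58 (205 to 323 CPM).

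Between naive strains edgeR called 0 to 5 muscle genes per comparison. Between naive hsp70-4c and hsp70-1c flies 4 muscle genes were higher in hsp70-4c, against 4.22% of 10462 genes, and 1 was lower, against 5.9%. The higher ones were TpnC73F (log2 change 0.76, SE 0.17, adjusted p = 0.00697), Zasp52 (log2 change 0.31, SE 0.07, adjusted p = 0.00822), Act57B (log2 change 0.38, SE 0.11, adjusted p = 0.0276) and Mhc (log2 change 0.29, SE 0.09, adjusted p = 0.0443). The calls of TpnC73F and Zasp52 remained under all 13 alternatives, and those of Act57B and Mhc were each lost in 6. The median of the 30 was 0.16 beside 0.00 for all genes. At an unadjusted p below 0.05, 11 muscle genes were higher and 1 lower, against 948 of 10462 genes higher and 11.1% lower. The count of called genes was 3 without hsp70-1c naive replicate 1, 3 or 4 or hsp70-4c naive replicate 1, 2 or 3, 9 without hsp70-1c naive replicate 2 and 10 without hsp70-4c naive replicate 4. Strain, genetic background and any batch coincide and cannot be told apart.

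Between naive w+hsp70- and hsp70-4c flies 2 muscle genes were higher in w+hsp70-, against 4.56% of 10462 genes, and 1 was lower, against 5.35%. Besides Msp300, the higher one was Mf (log2 change 0.60, SE 0.17, adjusted p = 0.0352), and the lower one was Act87E (log2 change -0.38, SE 0.10, adjusted p = 0.0154). The count was 1 without hsp70-4c naive replicate 3, 8 without hsp70-4c naive replicate 4 and 1 without w+hsp70- naive replicate 1. At an unadjusted p below 0.05, 4 muscle genes were higher and 9 lower, against 1126 of 10462 genes higher and 11.9% lower. Between naive hsp70- and hsp70-1c flies edgeR called no muscle gene, where 7.53% of genes were called in either direction. At an unadjusted p below 0.05, 2 muscle genes were higher and 1 lower, against 914 of 10462 genes higher and 12.4% lower. DESeq2 called 0. The smallest p were those of Mhc (log2 change 0.28, SE 0.10, adjusted p = 0.0814), Zasp66 (-0.25, SE 0.09) and Mf (0.45, SE 0.17). Without hsp70-1c naive replicate 2, 2 genes were called, as were 2 without hsp70- naive replicate 1. Between naive w+hsp70- and hsp70- flies edgeR also called none, where 0.287% of genes were called. At an unadjusted p below 0.05, 1 muscle gene was higher and 0 lower, against 438 of 10462 genes higher and 2.91% lower. DESeq2 called 0. Act88F (0.55, SE 0.23, adjusted p = 0.65), up (0.23, SE 0.12) and TpnC47D (0.75, SE 0.42) came first.

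Msp300 was nearly missing from hsp70-4c. This gene encodes a giant nesprin-type protein that links nuclei to the cytoskeleton and lies on chromosome 2L from 5100877 to 5207002 on the plus strand (dm6, Ensembl release 115 annotation). In hsp70-4c, Msp300 was at 3.59, 2.77, 2.28 and 3.802 CPM in naive flies, 3.03, 1.89 and 2.80 CPM at 5 h and 1.65, 4.28 and 1.68 CPM at 24 h, from 11 to 32 counts per library. In hsp70-1c, Msp300 was at 98.4, 107, 112 and 89.8 CPM in naive flies, 92.4, 111 and 75.4 CPM at 5 h and 120.3, 137 and 80.8 CPM at 24 h. All 10 hsp70-4c libraries lay far below all others. In naive and 5 h flies Msp300 was at 84.5, 124 and 159.5 and 116, 127 and 125 CPM in hsp70- and at 105, 112 and 117 and 104, 109 and 95.2 CPM in w+hsp70-. Naive flies had 33.0-fold less in hsp70-4c than in hsp70-1c (log2 change -5.04, SE 0.20, adjusted p = 5.81e-11) and 36.2-fold more in w+hsp70- than in hsp70-4c (log2 change 5.18, SE 0.20, adjusted p = 7.47e-11). Both calls remained under all alternatives tried, and training changed Msp300 in no strain at the threshold.

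Genes around Msp300 differed in both directions between the same naive strains. Of 14 tested genes within 50 kb before its start, 12 were not called and 2 were lower in hsp70-4c, asRNA:CR43820 at -0.43 (SE 0.12) and CG5828 at -0.38 (SE 0.12). Of all 10462 genes tested, 5.9% were lower and 4.22% higher, and 2 calls in so short a list cannot be set apart from these shares. Inside Msp300, sncRNA:158 at its 3′ end (5206205 to 5206361) was lower in hsp70-4c by a log2 difference of -4.94 (SE 0.23), while sncRNA:765 and sncRNA:128 (5193471 to 5193516 and 5196035 to 5196097) were higher by 0.98 (SE 0.13) and 0.85 (SE 0.13). Reads of these small RNA genes and of Msp300 come from the same strand and may be shared. Just past its end the cytochrome P450 genes Cyp28d2 and Cyp28d1 were lower, at -1.48 (SE 0.33) and -1.03 (SE 0.07), as were CG7742 at -1.19 (SE 0.22) and CG14034 at -1.86 (SE 0.38). The level of CG14034 was low in both strains, at 0.506 CPM in hsp70-4c and 1.87 CPM in hsp70-1c. TpnC25D, which comes next at 5216701 to 5219053, was not called (log2 change 0.32, SE 0.13, adjusted p = 0.133). The gene tkv was not called either (-0.02, SE 0.11), and CR14033, within 50 kb of the end, was higher by 3.16 (SE 0.26). These neighbours were chosen by position after the Msp300 difference was known.

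**Figure D5:**
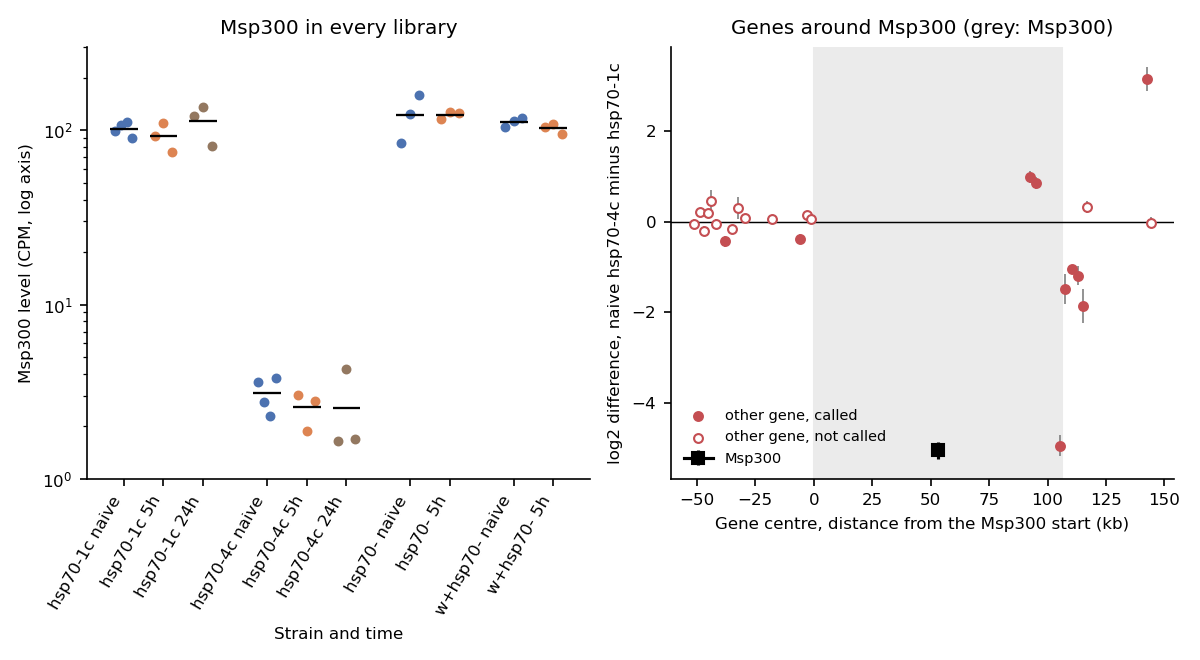
Left, Msp300 level (CPM, log axis) in each of the 32 libraries by strain and time, with group means as lines: the 10 hsp70-4c libraries lie between 1.65 and 4.28 CPM and all others between 75.4 and 159.5 CPM. Right, log2 difference between naive hsp70-4c and hsp70-1c flies for Msp300 (square) and the tested genes within 50 kb, by distance of the gene's centre from the Msp300 start, with SE as bars, filled where called and with the extent of Msp300 in grey.

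Genes outside the 30 that act in the same processes were followed as lists. Of 10 glycolytic and other energy genes with high levels in muscle, 8 were lower and 0 higher in the mean 5 h response (median log2 change -0.27, beside 0.00 for all genes, of which 7.7% were lower and 6.49% higher). They included Gpdh1, glycerol-3-phosphate dehydrogenase (log2 change -0.51, SE 0.06, adjusted p = 1.22e-07), Tpi, triose phosphate isomerase (-0.28, SE 0.04), and Pglym78, phosphoglycerate mutase (-0.34, SE 0.05). By strain at 5 h, 5 of these 10 were lower in hsp70-4c, 3 in hsp70-1c, 1 in w+hsp70- and 0 in hsp70-, where 2.44% and 2.1% of all genes were lower in the first pair of strains and 1.93% and 0.0305% were called in either direction in the others, with Gpdh1 at -0.76 (SE 0.14), -0.41 (SE 0.09) and -0.47 (SE 0.09) in the 3 strains in which it passed. These enzymes also serve cells other than muscle. Gpdh1 was higher in naive hsp70-4c than in naive hsp70-1c flies (log2 change 0.63, SE 0.10, adjusted p = 0.0004).

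Of 10 genes listed as other sarcomere genes, 4 were lower and 0 higher in the mean 5 h response, against the same 7.7% and 6.49% of all genes. The median of the 10 was -0.17. The 4 were jar (-0.24, SE 0.04), CG5023 (-0.28, SE 0.05), Actn, the Z-disc protein alpha-actinin (log2 change -0.35, SE 0.06, adjusted p = 0.00031), and Chd64 (-0.21, SE 0.05). Of these, jar encodes myosin VI, a motor that is not confined to muscle. The same 4 passed in hsp70-4c at 5 h, where 2.44% of all genes were lower. Actn was lower in hsp70-4c at 24 h too (-0.61, SE 0.13), where 0.423% of all genes were lower. In hsp70-1c 0 of the 10 passed at either time. Of 9 tested genes of calcium flux and membrane excitation, 2 were higher, against 6.49% of all genes, and 0 lower in the mean response: Stim, a store sensor (0.20, SE 0.04), and stac (0.21, SE 0.07). In hsp70-4c at 5 h, PMCA, a plasma membrane calcium pump gene (-0.44, SE 0.09), and jp, which encodes junctophilin (-0.37, SE 0.10), were lower, against 2.44% of all genes. Of 11 attachment and dystrophin complex genes, 1 was lower in the mean response, CAP (-0.22, SE 0.05), a share near the 7.7% of all genes. Of 8 muscle transcription and splicing regulators 0 passed at an adjusted p below 0.05, with a median of 0.05.

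Some markers of other cells were called in the same comparisons. In the mean 5 h response 0 of 4 tested neuronal, 0 of 9 photoreceptor and 0 of 9 gut markers were called, while 2 of 5 fat body markers (AkhR at -0.89, SE 0.08 and apolpp at -0.27, SE 0.06), 1 of 5 glial (wrapper, -0.37, SE 0.06), 1 of 4 haemocyte (vkg, -0.19, SE 0.05) and 1 of 2 cuticle markers (retinin, -0.33, SE 0.07) were lower. Over all genes, 7.7% were lower and 6.49% higher. In lists this short, 1 call cannot be set apart from these shares. By strain at 5 h, the neuronal marker Syx1A was lower in hsp70-1c (-0.42, SE 0.10) and in hsp70-4c (-0.39, SE 0.10), and the glial marker repo was higher in hsp70-1c (0.39, SE 0.10). Of all genes, 2.1% were lower and 1.41% higher in hsp70-1c at 5 h, and 2.44% and 3.04% in hsp70-4c. In hsp70-1c at 5 h, 4 of 5 tested fat body markers were lower, AkhR (-0.77, SE 0.11), apolpp (-0.49, SE 0.08) and fit (-0.77, SE 0.14) among them, and their summed level was 4501 to 5849.7 CPM in naive flies and 2422 to 2946 CPM at 5 h. In hsp70-4c at 5 h, 1 of 5 was higher, fit (1.81, SE 0.32), and the sums overlapped. AkhR was also lower in w+hsp70- at 5 h (-1.14, SE 0.11), where 1.93% of all genes were called in either direction. Photoreceptor markers summed to 44776 to 47733 CPM in naive hsp70-1c flies and 53667 to 56596 CPM at 5 h, and 1 of 9, ninaE, was called higher (0.33, SE 0.07). In hsp70-4c the sums were 31858 to 37683 CPM in naive flies and 37941 to 43013 CPM at 5 h, and 1 of 9, trpl, was called higher (0.50, SE 0.11). The share of reads on no gene was 66.8% in naive and 63.6% in 5 h hsp70-1c flies, and 67.4% and 65.2% in hsp70-4c. The part of these shifts in the muscle gene differences was not tested.

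Within groups most muscle genes moved together from library to library. The 29 genes at 5 CPM or more on average were used, which leaves out Zasp67 at 2.16 CPM. After group means were removed, the log2 level of up followed the mean of the other muscle genes most closely, with a Pearson r of 0.94 over the 32 libraries, followed by Tm2 at 0.87 and Mlc1 at 0.83. Msp300, sls and bt did not, at -0.12, -0.05 and 0.05. The library furthest above its group was hsp70-1c naive replicate 2, by 0.28 on the log2 scale, which also had the highest summed gut marker level of its group, at 4922, 19455, 4335 and 10705 CPM for replicates 1 to 4. The library furthest below was hsp70-4c naive replicate 4, by -0.32, which was neither highest nor lowest in its group in gut sum, at 14400.1, 6833, 11089.7 and 9581 CPM. Whether gut content played a part was not tested.

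By the same measure, the pattern most like that of these 29 was sought among 8616 genes at 5 CPM or more, and those with a symbol in the reference tables among the first 10 are named. The highest r was that of CG7203, at 0.83, followed by ATPsynC and mAcon1 at 0.80 each, blw at 0.79 and CG7214 at 0.76. Mpcp1 was at 0.75, and Mipp1, ATPsynE and CG4239 at 0.74, 0.74 and 0.73. The gene among the first 10 that has no symbol there, FBgn0004028, was at 0.75, with a mean level of 247.5 CPM. ATPsynC, blw and ATPsynE encode subunits of mitochondrial ATP synthase, mAcon1 the aconitase of the citric acid cycle and Mpcp1 a mitochondrial phosphate carrier. The libraries share depth and scaling, and these r values are descriptions.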

How the data were processed

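The authors deposited 1 table of raw read counts per gene for each of the 32 libraries. Per the submitters' processing notes, Trimmomatic, STAR 2.5.0a, featureCounts 1.5.0-p1 and the genome build dm6 were used; per the labels' protocols, 75-bp single-end reads came from a directional kit. The strand setting of the counting and the annotation release are not given in the sources used here. In all 32 files the genes summed to the assigned total, and lines of unassigned reads stayed out of library sizes. The depth that sets the precision was 4542145 to 10344890.0 assigned reads per library.

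Symbols were matched by FlyBase identifier through Ensembl release 115. Counts were filtered with filterByExpr, scaled by TMM and fitted with edgeR 4.0.16 (R 4.3.3, limma 3.58.1) by the quasi-likelihood test, robust and two-sided, with 1 mean per group. Each training comparison used the libraries of its strain, each naive comparison those of the naive groups, each difference of responses those of the strains in it and the mean 5 h response all 32 libraries. Genes with a Benjamini-Hochberg adjusted p below 0.05 over all genes tested were called. The SE is the log2 change divided by the root of F. CPM are TMM-scaled, and levels per kb divide CPM by exon length. Alternatives were DESeq2 1.42.0 (Wald test, its own size factors), DESeq2's size factors within edgeR, no filter, a fit to all 32 libraries (for the mean 5 h response, the 26 naive and 5 h ones), a block for replicate number and leaving out each library. The fits were tested on simulated data.

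The 31 genes and the other lists were chosen with earlier results of these data known. Called muscle genes were named (above 10, those with the smallest adjusted p), or the 3 with the smallest p where none was called. Library values were given for Mhc, Mlc1, Act57B, Act79B, Act88F, TpnC4, fln, SERCA and genes called in 2 or more comparisons, and up to 3 called genes of each other list were named. Replicates are separate pools of flies, per the labels' protocols.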

Additional observations from a re-analysis of the deposited data

Results flagged for a closer look

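Of 60 groups of 4 libraries examined, that is the 30 muscle genes in naive hsp70-1c and naive hsp70-4c flies, 3 held a library far from the other libraries of its group by Dixon's test. Chance flags about 1 in 20 groups. In naive hsp70-4c flies, replicate 4 was the lowest for fln, at 12.06 CPM against 21.4 to 23.1 CPM in the other 3 libraries. The same library was the lowest for TpnC25D, at 494.4 CPM. In naive hsp70-1c flies, replicate 2 was the highest for TpnC4, at 38.24 CPM against 3.09 to 6.65 CPM in the other 3 libraries. These are the libraries furthest below and furthest above their groups over the 29 muscle genes at 5 CPM or more, with mean log2 deviations of -0.32 and 0.28.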

How the results depend on the processing

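No muscle gene result changed direction while called. Of 6780 values, each 1 of 480 results under 1 alternative, 6484 kept direction and side of the threshold, 164 no longer passed and 132 newly passed. With the DESeq2 Wald test, 9 genes were called in hsp70-1c at 5 h, 14 in hsp70-1c at 24 h, 15 in hsp70-4c at 24 h, 8 between naive hsp70-4c and hsp70-1c, and 6 between naive w+hsp70- and hsp70-4c. With all 32 libraries in the fit, the counts were 3 in hsp70-1c at 24 h, 15 in hsp70-4c at 24 h, 1 in hsp70-4c between 24 h and 5 h, 8 between naive hsp70-4c and hsp70-1c, 1 between naive hsp70- and hsp70-1c, and 7 between naive w+hsp70- and hsp70-4c. Without the filter they were 4 in w+hsp70- at 5 h and 1 in hsp70-1c at 24 h. The share of all genes called under these alternatives is not given here, and the cause of these shifts was not tested. Leaving out 1 library at a time gave 0 to 6 genes in hsp70-1c at 5 h, 2 to 14 in hsp70-4c at 5 h, 0 to 1 in w+hsp70- at 5 h, 0 to 13 in hsp70-4c at 24 h, 3 to 10 between naive hsp70-4c and hsp70-1c, 0 to 2 between naive hsp70- and hsp70-1c, 1 to 8 between naive w+hsp70- and hsp70-4c, and 16 to 20 in the mean 5 h response.

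Same-numbered libraries of a strain did not deviate together throughout: their correlations averaged 0.08 in hsp70-1c (lowest -0.187), 0.096 in hsp70-4c (lowest -0.075), 0.104 in hsp70- (lowest 0.007) and 0.038 in w+hsp70- (lowest -0.103), against averages of -0.03, -0.036, -0.05 and -0.019 for different numbers. Since some same-number pairs fell below 0.1 in each strain and no label gives the number a meaning, the numbers were not taken to pair the samples. A library correlated best with its own number in 22 of 48 pairings of a library with another group, and the number to be expected without pairing was not computed. Same numbers averaged above different numbers in every strain, so a partial pairing remains possible. With the replicate block the counts were 22 in hsp70-4c at 5 h, 19 in hsp70-4c at 24 h, 1 in w+hsp70- at 5 h and 1 in hsp70-4c between 24 h and 5 h. Genes at few counts, such as Msp300 in hsp70-4c at 11 to 32 counts, are limited by depth.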
